A study of Micropterus salmoides with 45 samples.

Results

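In liver of largemouth bass (Micropterus salmoides), 33 of the 2660 genes with deposited values were higher under severe hypoxia than in controls at 4, 8, 12 and 24 h and less than 0.6 above control, or below it, under moderate hypoxia after 24 h on the log2 scale defined next. These 33 genes, called members here, were selected on the values themselves. The rule took log2(RPKM + 1), where RPKM is the number of reads per unit of gene length and per unit of library depth, and averaged the 3 libraries of each group. A member had a mean of 2 to under 100 RPKM over the 15 control libraries, a severe minus control difference of at least 0.8 at each of 4, 8, 12 and 24 h, and a moderate minus control difference under 0.6 after 24 h. Of 2147 genes in the control range, 115 met the severe condition, and 82 of those were left out by the moderate limit. The 82 serve below as comparison genes. Differences that the rule used are given as a description, and where counts of test calls are printed for them, those counts support nothing. Tests are read only where neither group compared gave a difference used by the rule. Test results printed for other comparisons, such as moderate against control at 4, 8 and 12 h, are a description.

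Severe hypoxia (SHG) was water kept at 1.2 ± 0.2 mg/L dissolved oxygen, moderate hypoxia (MHG) was 3.0 ± 0.2 mg/L, and control (CG) was 7 mg/L, per the labels' protocols. Each level was sampled at 0, 4, 8, 12 and 24 h, with 3 libraries per group and 45 in all. The fish of every group were 6 months old and were held at 20 °C without feed. Nitrogen brought the oxygen down within the hour before the time recorded as 0 h, so SHG and MHG fish had already met low oxygen at 0 h. No tank held more than 1 oxygen level: each level had 3 tanks of 30 fish, and no label links a library to a tank, so tank and oxygen level cannot be told apart. Nor do the labels say if libraries of the same group are different fish, and p-values measure only the spread between libraries.

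When oxygen falls, vertebrate cells stabilise hypoxia-inducible factors, which switch on genes of glucose uptake, glycolysis, iron handling and blood vessel growth. Liver is central to this response because it stores glycogen, makes glucose for other organs and turns lipid and amino acids into fuel. The features here are genes of a de novo Trinity assembly whose identifiers the files do not pair with names. No member could therefore be given a function, no list of hypoxia genes or cell type markers could be applied, and the tissue label could not be checked against liver markers. In bulk tissue, fewer cells of a type and less RNA per cell cannot be told apart.

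Read totals recovered from the step size of the values ran from 29986862 to 33433838 per library, and all 117443 values above 0 were whole reads within 0.01 of a read. A member had a median of 630 reads per library. The members were 393 to 7934 bp long with a median of 2448 bp, against 2983.5 bp for the comparison genes and 2584.5 bp for all listed genes. A filter of at least 1 RPKM in 3 libraries kept 2656 genes and all 33 members. The table of CG 8 h replicate 2 lacked 133 genes, none of them a member. The lists in the tables hold only part of each library's genes, and the rule of that list is not given in the sources used here, so shares of all genes tested are shares of this list.

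Averaged over the 33 members, the level of log2(RPKM + 1) in SHG livers was 3.34 ± 0.08 at 0 h, 4.15 ± 0.11 after 4 h, 4.34 ± 0.31 after 8 h, 4.41 ± 0.46 after 12 h and 4.34 ± 0.44 after 24 h (SD, n = 3 libraries each). MHG livers averaged 3.24 ± 0.16, 3.03 ± 0.30, 3.14 ± 0.32, 2.78 ± 0.25 and 2.93 ± 0.11 at the same times. CG livers averaged 2.88 ± 0.04, 2.78 ± 0.02, 2.70 ± 0.11, 2.61 ± 0.09 and 2.85 ± 0.34. The SHG mean was thus near its later level after 4 h, and no MHG or CG library reached the lowest SHG library from 4 h on at the same time. The selection built in the separation of means from CG at these times and from MHG after 24 h. MHG libraries of 4, 8 and 12 h took no part in the rule, but the SHG libraries set against them did. At 0 h, before any value used for the severe difference, the SHG and MHG libraries lay above all 3 CG libraries and overlapped each other. The mean over all 2656 genes tested stayed between 2.67 and 2.94 in every group.

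**Figure D1:**
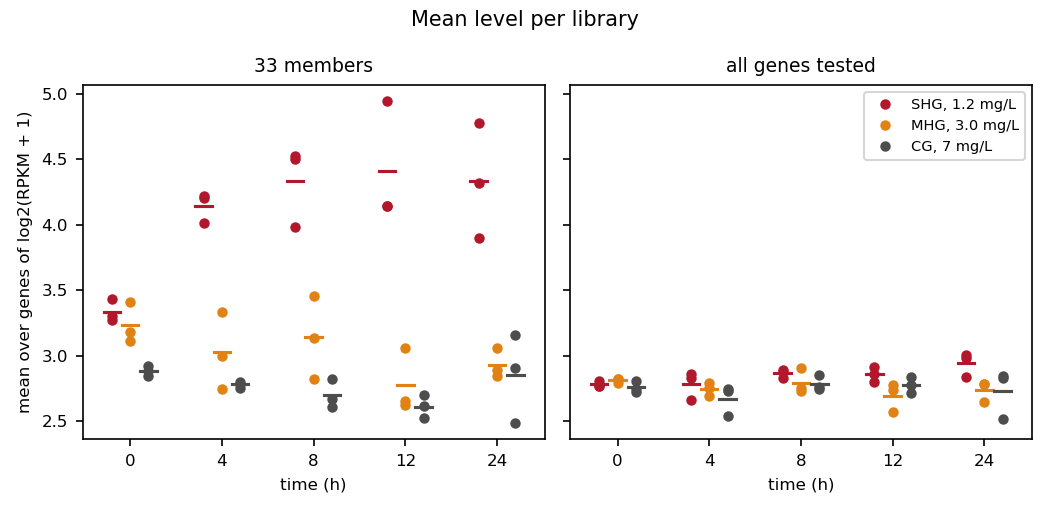
Mean of log2(RPKM + 1) over the 33 members (left) and over all 2656 genes tested (right) in each library, by time in hours on the x axis. Each point is a library and each bar the mean of 3, with SHG in red, MHG in orange and CG in grey; from 4 h the SHG points of the members stand apart, and at 0 h the SHG and MHG points overlap above CG.

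Across members the severe minus control difference had a median of 1.25 after 4 h, 1.48 after 8 h, 1.78 after 12 h and 1.47 after 24 h on the log2(RPKM + 1) scale, where all genes tested had medians of 0.08, -0.01, 0.08 and 0.22. The difference was highest after 4 h in 2 members, after 8 h in 10, after 12 h in 12 and after 24 h in 9. In the 82 comparison genes these counts were 3, 17, 37 and 25. The difference was lowest after 4 h in 18 of 33 members, so in most members the first later time was the smallest. The same held in 49 of 82 comparison genes, and in 903 of 2656 genes tested, so it was not particular to members. From 4 to 24 h the difference changed by -1.17 in c75750_g1 and -1.14 in c86897_g4, the members that declined most, and by 1.67 in c91452_g7 and 0.90 in c80792_g2, the members that climbed most. The mean difference over the 4 times was highest in c78034_g2, at 2.38, and c107607_g1, at 2.30, and lowest in c88444_g7, at 0.88, and c90998_g3, at 1.01.

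**Figure D2:**
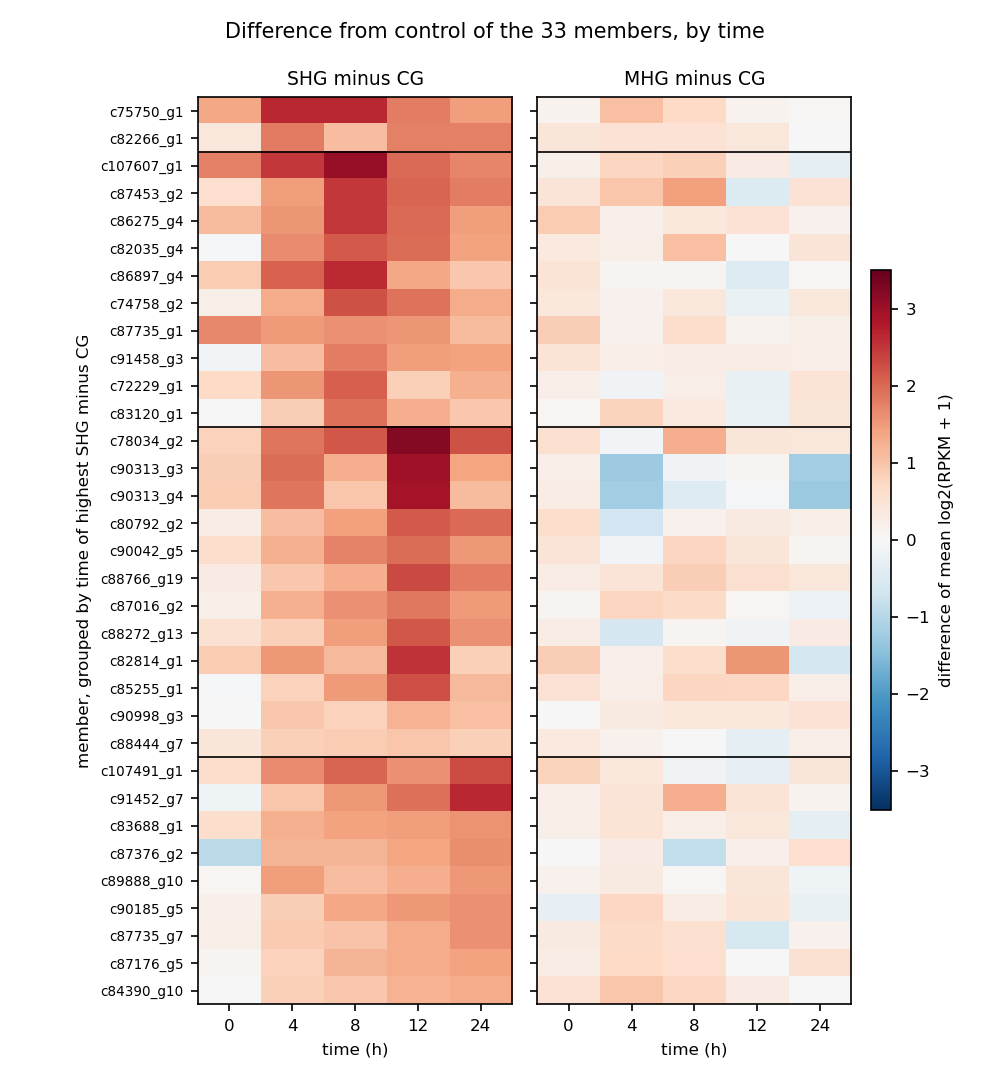
Difference from control in mean log2(RPKM + 1) for each of the 33 members, SHG minus CG on the left and MHG minus CG on the right, by time in hours. Rows are grouped by the time of the highest SHG minus CG difference, red is above control and blue below; both panels subtract the same CG libraries, the columns from 4 to 24 h on the left and 24 h on the right were used to choose the rows, and the strongest blue cells are c90313_g3 and c90313_g4 under MHG at 4 and 24 h.

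The limits of the rule ran through a continuous range. Just inside the severe limit were c87176_g5, with 0.80 after 4 h, and c90998_g3, with 0.80 after 8 h. Just outside were c90906_g7, with a difference of 0.796 after 24 h, and c84468_g11, with 0.774 after 12 h and 0.780 after 4 h. In all, 67 genes, c90906_g7 among them, met every other condition and missed the severe limit at exactly 1 time. Of these, 34 missed it after 4 h, 11 after 8 h, 9 after 12 h and 13 after 24 h, so the 4 h limit removed the most. Under the moderate limit after 24 h, c87376_g2 at 0.59 and c87176_g5 at 0.54 were just inside, and c89650_g14 and c86141_g5, both at 0.62, just outside. The moderate value of c87376_g2 was -0.17 without CG 24 h replicate 1, in which it had 0 reads, and 1.51 with a pseudocount of 0.1, and that of c87735_g1, 0.21 with all libraries, was 0.94 without CG 24 h replicate 2.

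Limma on log2(RPKM + 1), with Benjamini-Hochberg adjustment over the 2656 genes, called 17 members higher in SHG than in CG livers after 4 h (6.63% of all genes tested), 28 after 8 h (21.5%), 33 after 12 h (36.8%) and 29 after 24 h (40.7%). Nothing is read from these counts, since the same values chose the members. At 4 h the count fell to 1 when only the compared groups entered the fit, and to 7 without SHG 4 h replicate 3 and 11 without SHG 4 h replicate 2. The corresponding SHG against MHG counts were 9 members after 4 h (3.43%), 16 after 8 h (9.30%) and 29 after 12 h (25.8%), again with SHG libraries that had chosen the members. The 24 h count against MHG is left out. Both of its groups entered the rule, as did both groups of each SHG against CG count above. With only the compared groups in the fit, the counts against MHG after 4, 8 and 12 h were 0, 8 and 18. Without 1 library, the 4 h count against MHG was 3 (without MHG replicate 2), 4 (without MHG replicate 3) or 4 (without SHG replicate 1), and the 8 h count was 9 (without MHG replicate 2), 9 (without SHG replicate 1) or 10 (without SHG replicate 2). Shares of all genes called are not given for these refits, so the refit counts do not say if calls fell more in members than elsewhere. In 11 of 33 members all 12 SHG libraries of 4 to 24 h lay above all 12 CG libraries (3.54% of genes tested), as in 33 of 82 comparison genes. In 3 members, c107491_g1, c80792_g2 and c86897_g4, these SHG libraries lay above all 12 MHG libraries (0.715%), as in 8 of 82 comparison genes.

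The member with the highest mean difference, c78034_g2, had 154, 36.3 and 25.3 RPKM in the SHG libraries after 4 h, 99.5, 46.4 and 17.6 after 8 h, 107, 83.7 and 66.4 after 12 h and 22.1, 146 and 52.1 after 24 h. Its 12 MHG libraries of these times had a lowest, median and highest level of 4.48, 14.8 and 88.8 RPKM, and its 12 CG libraries 3.23, 9.29 and 31.7. SHG was thus high on average with wide gaps between libraries, and its lowest libraries overlapped the highest of CG and MHG. Over all 45 libraries, the genes whose log2(RPKM + 1) levels were most like those of c78034_g2 were c83124_g1 (Pearson r 0.91) and c75590_g2 (r 0.87). Neither is a member, since their moderate minus control differences after 24 h were 1.07 and 0.83. These correlations share the oxygen groups and the libraries and are given without a test.

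For c107607_g1 the SHG libraries held 23.6, 11.7 and 24.2 RPKM after 4 h, 35.7, 31.1 and 18.5 after 8 h, 27.3, 6.82 and 11.6 after 12 h and 7.92, 31.2 and 9.52 after 24 h. The lowest, median and highest of its 12 MHG libraries were 1.82, 4.00 and 7.47 RPKM, and those of its 12 CG libraries 1.47, 2.58 and 5.87. Every SHG library of 4 to 24 h lay above every CG library of these times. The lowest SHG library, 12 h replicate 2, fell below the highest MHG library.

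Member c75750_g1 had 118, 85.8 and 103 RPKM in SHG livers after 4 h, 216, 116 and 102 after 8 h, 107, 43.1 and 56.0 after 12 h and 46.6, 66.6 and 41.5 after 24 h. Its MHG libraries had a lowest, median and highest of 14.9, 24.3 and 49.0 RPKM and its CG libraries 12.8, 17.5 and 30.4. All 12 SHG libraries exceeded all 12 CG libraries, and the SHG level after 24 h was lower than at 4 and 8 h in every library. The difference from control was 2.64, 2.63, 1.78 and 1.47 at 4, 8, 12 and 24 h.

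The opposite course was seen in c91452_g7, which had 5.27, 9.03 and 7.93 RPKM in SHG livers after 4 h, 6.13, 9.29 and 12.9 after 8 h, 30.2, 6.17 and 12.1 after 12 h and 18.1, 44.1 and 29.3 after 24 h. The lowest, median and highest of its MHG libraries were 2.27, 4.67 and 11.7 RPKM and of its CG libraries 1.77, 3.21 and 4.71. The 3 SHG libraries of 24 h all lay above the 6 SHG libraries of 4 and 8 h, and all 12 SHG libraries lay above all 12 CG libraries. The difference from control was 0.97, 1.51, 1.93 and 2.63 at 4, 8, 12 and 24 h.

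Member c80792_g2 held 10.9, 7.71 and 16.2 RPKM in SHG livers after 4 h, 12.9, 13.3 and 5.68 after 8 h, 20.3, 6.09 and 12.8 after 12 h and 5.42, 17.3 and 17.8 after 24 h. Its MHG libraries had a lowest, median and highest of 1.94, 2.91 and 4.19 RPKM and its CG libraries 1.72, 2.60 and 8.48. All SHG libraries of 4 to 24 h exceeded all MHG libraries of these times, while CG 4 h replicate 3, at 8.48 RPKM, exceeded several SHG libraries.

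Members c107491_g1 and c86897_g4 also separated SHG from MHG in every library of these times. In c86897_g4 the SHG libraries held 58.8, 30.0 and 64.8 RPKM after 4 h, 84.0, 81.8 and 35.4 after 8 h, 31.7, 21.3 and 26.3 after 12 h and 19.6, 28.8 and 20.6 after 24 h, against a lowest, median and highest of 4.92, 10.1 and 16.9 RPKM in MHG and 6.69, 11.2 and 17.2 RPKM in CG libraries. The SHG level was thus highest early and lower after 12 and 24 h, yet its lowest library stayed above both other ranges. In c107491_g1 the lowest, median and highest of the 12 SHG libraries were 7.65, 12.3 and 25.2 RPKM, against 1.39, 2.37 and 5.52 RPKM in MHG and 1.02, 2.57 and 4.51 RPKM in CG libraries.

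The members with the smallest mean difference had SHG libraries closer together than the median member, with within-group SDs of 0.22 in c90998_g3 and 0.35 in c88444_g7 on the log2 scale. In c90998_g3 the SHG libraries held 5.46, 7.04 and 5.56 RPKM after 4 h, 5.17, 6.38 and 8.35 after 8 h, 8.23, 8.88 and 6.77 after 12 h and 9.70, 6.85 and 9.13 after 24 h, against 2.15, 4.63 and 6.12 RPKM as the lowest, median and highest of MHG and 1.77, 2.89 and 5.44 RPKM of CG libraries. Its lowest SHG libraries overlapped the top of both other levels. In c88444_g7 the lowest, median and highest were 5.71, 9.32 and 12.4 RPKM in SHG, 2.34, 4.11 and 8.10 RPKM in MHG and 1.85, 4.81 and 6.24 RPKM in CG libraries, again with overlap. Among the least abundant members, c82035_g4 had 3.34, 10.5 and 24.0 RPKM in SHG, 1.30, 2.79 and 6.68 RPKM in MHG and 0.952, 1.76 and 5.04 RPKM in CG libraries as lowest, median and highest, with overlap at the low end of SHG. For c87016_g2 these were 4.13, 7.26 and 20.0 RPKM in SHG, 1.02, 2.67 and 8.87 RPKM in MHG and 1.27, 2.07 and 3.64 RPKM in CG libraries. Here every SHG library of 4 to 24 h exceeded every CG library of these times.

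**Figure D3:**
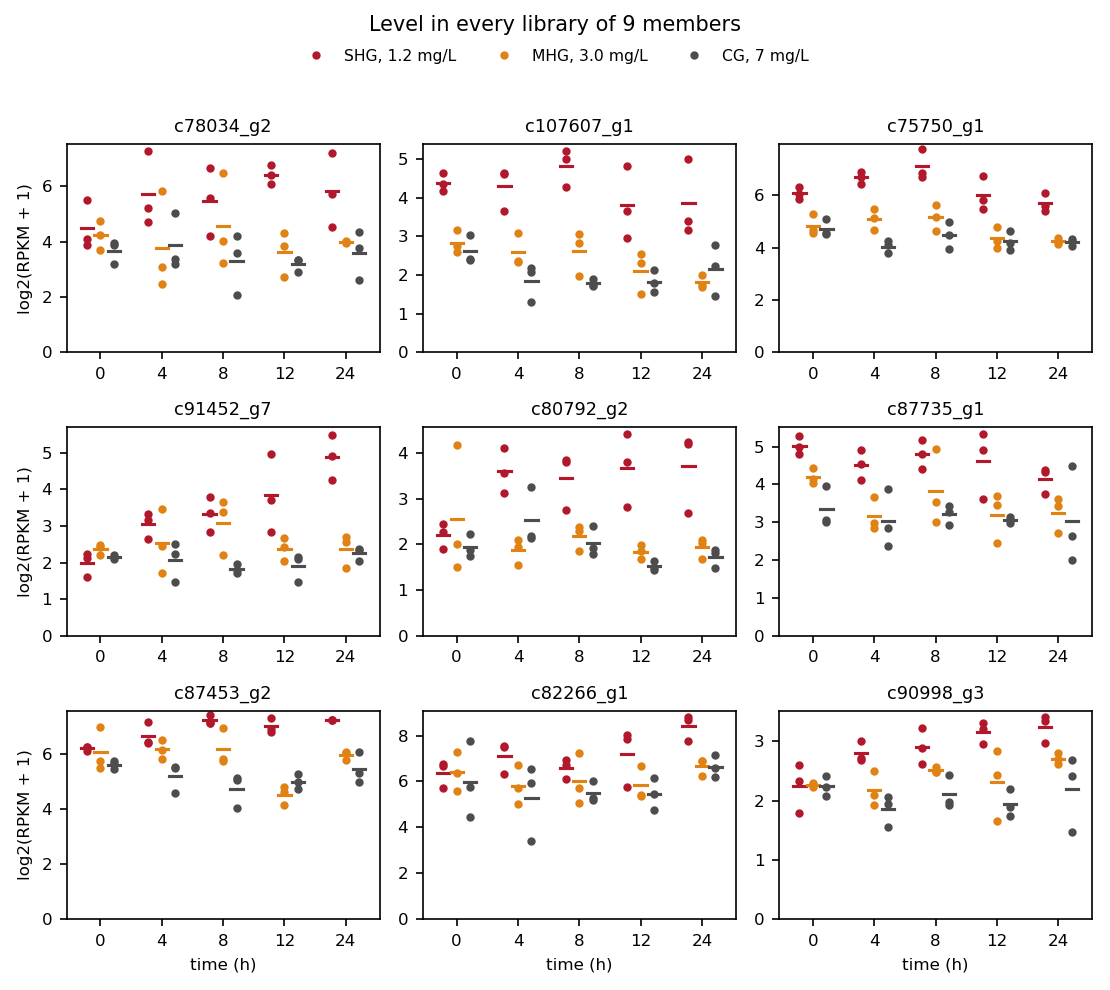
Level of log2(RPKM + 1) of 9 named members in each library, by time in hours. Points are libraries and bars group means of 3, with SHG in red, MHG in orange and CG in grey; c75750_g1 is highest under SHG at 4 and 8 h, c91452_g7 after 24 h, and c107607_g1 and c87735_g1 are already high in SHG libraries at 0 h.

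The control level of members ran over more than an order of magnitude. The most abundant were c82266_g1, with a mean of 69.2 RPKM over the 15 CG libraries, and c87453_g2, with 37.5 RPKM, and the least abundant c82035_g4, with 2.11 RPKM, and c87016_g2, with 2.43 RPKM. The median of members was 4.30 RPKM, against 6.32 RPKM for comparison genes. In c82266_g1 the SHG libraries of 4 to 24 h had a lowest, median and highest of 53.3, 181 and 449 RPKM, against 31.0, 62.3 and 152 in MHG and 9.57, 62.2 and 143 in CG libraries. The ranges overlapped at the low end of SHG, although the median of SHG exceeded the highest of either other level over these times.

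The libraries of 0 h took no part in the severe or moderate differences of the rule. SHG minus CG at 0 h had a median of 0.39 over members, with 26 of 33 above 0, against a median of -0.01 over all genes tested. MHG minus CG at 0 h had a median of 0.30, with 31 of 33 above 0, against 0.04 over all genes. Both differences subtract the same 3 CG libraries. SHG minus MHG at 0 h, which does not involve them, had a median of 0.05 with 18 of 33 members above 0, against -0.04 over all genes and 0.42 with 70 of 82 above 0 in the comparison genes. The median member thus stood above control at 0 h at both oxygen levels, by similar medians.

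No member passed the adjusted threshold in any 0 h comparison by limma. In SHG against CG, 0 members were called (0% of genes tested called higher), and 6 members among 161 genes had an unadjusted p under 0.05. In MHG against CG, 0 were called (0%), with 1 member among 90 genes under 0.05 unadjusted. In SHG against MHG, 0 were called (0.0377%), with 2 members among 109 genes under 0.05 unadjusted. All 3 SHG libraries lay above all 3 CG libraries in 14 members (9.71% of genes tested) and above all 3 MHG libraries in 5 members (6.17%).

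The largest SHG minus CG difference at 0 h was in c107607_g1, which had 23.9, 17.0 and 19.3 RPKM in SHG, 5.00, 5.68 and 8.03 in MHG and 7.22, 4.28 and 4.34 in CG livers. Every SHG library was more than 2 times the highest MHG or CG library. The difference was 1.77 ± 0.42 (SE; limma adjusted p = 0.213) against CG and 1.55 ± 0.42 (limma adjusted p = 0.211) against MHG, and neither passed. The next was c87735_g1, with 37.9, 26.9 and 30.7 RPKM in SHG, 16.6, 15.5 and 20.7 in MHG and 14.6, 7.36 and 7.10 in CG livers. Its groups stood in the order SHG, MHG, CG without overlap, and SHG minus CG was 1.68 ± 0.48 (limma adjusted p = 0.353). In c75750_g1 the values were 78.8, 57.5 and 64.4 RPKM in SHG, 22.9, 24.6 and 37.4 in MHG and 33.4, 22.7 and 21.7 in CG livers. SHG was above both others without overlap, by 1.35 ± 0.32 against CG (limma adjusted p = 0.213).

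At the other end, c87376_g2 had 1.22, 6.23 and 0 RPKM in SHG, 3.04, 3.72 and 4.86 in MHG and 3.12, 4.73 and 3.81 in CG livers at 0 h. The groups overlapped, and the SHG minus CG difference was -0.94 ± 0.57 (limma adjusted p = 0.954). It was -0.27 without SHG replicate 3 and -1.70 without SHG replicate 2. This was the shortest member, at 393 bp, and the only member with a library at 0 reads. In c91452_g7 the values were 2.05, 3.33 and 3.72 RPKM in SHG, 4.59, 3.65 and 4.38 in MHG and 3.24, 3.64 and 3.41 in CG livers, a difference of -0.16 ± 0.41 (limma adjusted p = 1).

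Set against the 0 h libraries of the same level, SHG was higher by a median of 0.74 after 4 h, 0.99 after 8 h, 1.03 after 12 h and 1.04 after 24 h over members, where all genes tested had medians of -0.02, 0.02, 0.02 and 0.12. This change is not independent of the choice of members, because the later SHG libraries entered it, and it has no test here. It was at least 0.8 in 15 members after 4 h, 22 after 8 h, 24 after 12 h and 22 after 24 h, and at all 4 times in 11 of 33 members, against 13 of 82 comparison genes and 67 of 2656 genes tested. The SHG mean was above its own 0 h at all 4 times in 28 of 33 members, against 65 of 82 comparison genes and 873 of 2656 genes tested. Over the 4 later times, c107607_g1 and c87735_g1 averaged 0.18 and 0.50 below their own 0 h level on the log2 scale, so their SHG libraries were on average no lower at 0 h than later. The CG mean of these times was -0.22 from its own 0 h by median over members, -0.31 over comparison genes and -0.01 over all genes. The later CG libraries entered the rule too, which favoured genes low in them, so nothing is read from this CG change.

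**Figure D4:**
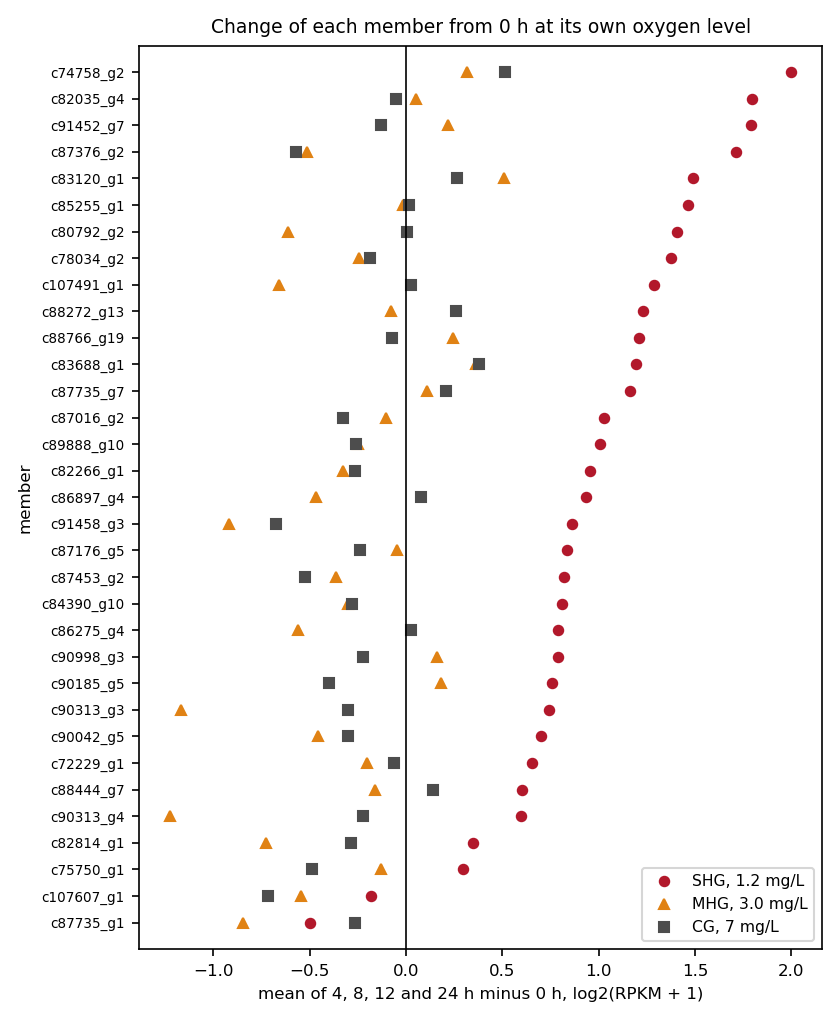
Change of each member from 0 h at its own oxygen level, as the mean of 4, 8, 12 and 24 h minus 0 h on the log2(RPKM + 1) scale on the x axis, with members in rows ordered by the SHG change. SHG points (red circles) lie right of 0 in 31 of 33 members, while MHG (orange triangles) lie right of 0 in 9 and CG (grey squares) in 11; the later SHG and CG libraries and the MHG libraries of 24 h were used to choose the members.

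Under moderate hypoxia most members were at or below their own 0 h level at 4 and 12 h, as were most genes tested. MHG libraries of 0, 4, 8 and 12 h took no part in the rule. Relative to MHG at 0 h, members had a median of -0.18 after 4 h, 0.07 after 8 h and -0.43 after 12 h, with 12, 17 and 6 of 33 above 0. All genes tested had medians of -0.05, 0 and -0.11, with 43.5%, 49.5% and 38.2% above 0. Of the comparison genes, 25, 48 and 27 of 82 were above 0. Oxygen and time in the tank change together in these comparisons and cannot be told apart. In CG livers members had medians of -0.07, -0.14 and -0.28 from their own 0 h at these times, with later CG libraries that the rule used. Limma called 0 members higher than at 0 h after 4 h (0.0377% of genes tested), 0 after 8 h (0%) and 0 after 12 h (0.113%). In either direction, 2, 4 and 5 members among 132, 213 and 316 genes had an unadjusted limma p under 0.05. At 12 h 1 member was lower (0.188%). All 3 MHG libraries of 12 h lay below all 3 of 0 h in 8 members (10.2%) and above them in 0 members (5.05%). The mean of 4 to 12 h minus 0 h was highest in c83688_g1, at 0.53, and c83120_g1, at 0.48.

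In the member with the highest of these means, c83688_g1, there were 3.72, 1.32 and 2.02 RPKM in MHG at 0 h, and 3.16, 4.49 and 5.03 RPKM after 4 h, 3.03, 4.16 and 3.58 RPKM after 8 h and 3.60, 4.00 and 2.31 RPKM after 12 h. The 0 h library at 3.72 RPKM lay within the later range.

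The member that fell was c87453_g2, with 26.6, 16.5 and 23.5 RPKM in MHG livers after 12 h, against 43.5, 52.4 and 125 RPKM in MHG livers at 0 h. The groups did not overlap, and the change was -1.55 ± 0.34 (SE; limma adjusted p = 0.0394). In CG livers the change of this member from 0 to 12 h was -0.63, with 12 h libraries that the rule used. What time in the tank adds to the MHG change was not tested. The call was lost without MHG 0 h replicate 3 (125 RPKM), without any 1 of the 3 MHG 12 h libraries, with a pseudocount of 0.1, and when only the compared groups entered the fit. Without MHG 0 h replicate 2, 2 members were called, the other being c91458_g3. The share of all genes called is not given for this refit, so nothing is read from its count. In SHG livers, c87453_g2 had 84.5, 82.3 and 143 RPKM after 4 h, 138, 139 and 167 after 8 h, 109.9, 157 and 119 after 12 h and 149, 147 and 149 after 24 h. These were the most even SHG libraries of any member, with a within-group SD of 0.219 on the log2 scale over 4 to 24 h, and c90998_g3 followed with 0.223.

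Against control, MHG had a member median of 0.28 after 4 h, 0.41 after 8 h and 0.18 after 12 h, beside 0.07, 0.01 and -0.03 over all genes tested. The CG libraries of these times had helped to choose the members by being low against SHG. Limma called 0 members higher after 4 h (0.0377%), 0 after 8 h (0.188%) and 0 after 12 h (0%). An unadjusted limma p under 0.05 was found in 5, 9 and 2 members among 231, 427 and 452 genes, in either direction. Without CG 4 h replicate 2, 1 member, c87176_g5, was called after 4 h. For this refit the share of all genes called is not given, and nothing is read from its count. All 3 MHG libraries lay above all 3 CG libraries in 6 members after 4 h (5.46%), 10 after 8 h (11.3%) and 5 after 12 h (8.58%). A difference of at least 0.8 at any of these 3 times was present in 9 of 33 members, against 41 of 82 comparison genes and 346 of 2656 genes tested.

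The closest to a call was c87453_g2 after 8 h, with 122, 52.9 and 55.2 RPKM in MHG, against 33.7, 15.2 and 32.1 RPKM in CG livers. The libraries did not overlap, and the difference was 1.44 ± 0.34 (limma adjusted p = 0.0534). Without MHG 8 h replicate 3 it passed (limma adjusted p = 0.0401). At 4 h the same member had 89.6, 70.0 and 55.1 RPKM in MHG, against 43.2, 22.9 and 44.5 RPKM in CG livers, a difference of 0.97 ± 0.34 (limma adjusted p = 0.347). At 12 h MHG minus CG was -0.47 ± 0.34 (limma adjusted p = 0.481), and after 24 h, a value the rule used, it was 0.52. The CG libraries of 4, 8 and 12 h had helped to choose the members, so nothing is read from these p-values. From 0 to 8 h this member changed by 0.11 in MHG and by -0.88 in CG livers. Its MHG minus CG difference was 0.46 at 0 h.

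Genes c90313_g3 and c90313_g4 of 1 Trinity component behaved almost as a single gene. Their deviations from group means had a Pearson r of 0.95 over the 45 libraries. Transcripts of 1 assembled component can share sequence, so their reads may be split between them and they are not independent members. In SHG livers c90313_g3 had 42.1, 30.7 and 9.55 RPKM after 4 h, 29.3, 30.1 and 1.44 after 8 h, 69.9, 7.18 and 28.4 after 12 h and 5.41, 23.4 and 21.9 after 24 h. In MHG livers it had 2.63, 1.02 and 1.49 RPKM after 4 h, 2.20, 0.660 and 22.9 after 8 h, 6.79, 1.61 and 1.22 after 12 h and 1.28, 2.04 and 1.27 after 24 h. In CG livers the lowest, median and highest of 12 libraries were 1.08, 4.41 and 8.93 RPKM.

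The SHG libraries of these 2 genes were the most uneven of all members, with within-group SDs of 1.46 for c90313_g3 and 1.65 for c90313_g4 on the log2 scale. SHG 8 h replicate 3 was low in both, at 1.44 and 0.826 RPKM, and MHG 8 h replicate 3 high, at 22.9 and 21.9 RPKM. They also had the lowest moderate minus control differences after 24 h, -1.22 and -1.29, and the lowest mean of MHG 4 to 12 h minus 0 h, -1.04 and -1.16. At 0 h MHG livers had 7.00, 15.7 and 2.05 RPKM of c90313_g3, so the 0 h libraries were uneven too. In neither gene did MHG pass the limma test against CG at 0, 4, 8 or 12 h, or against its own 0 h at 4, 8 or 12 h. The MHG minus CG difference after 24 h was used by the rule, and no test of it is given.

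**Figure D5:**
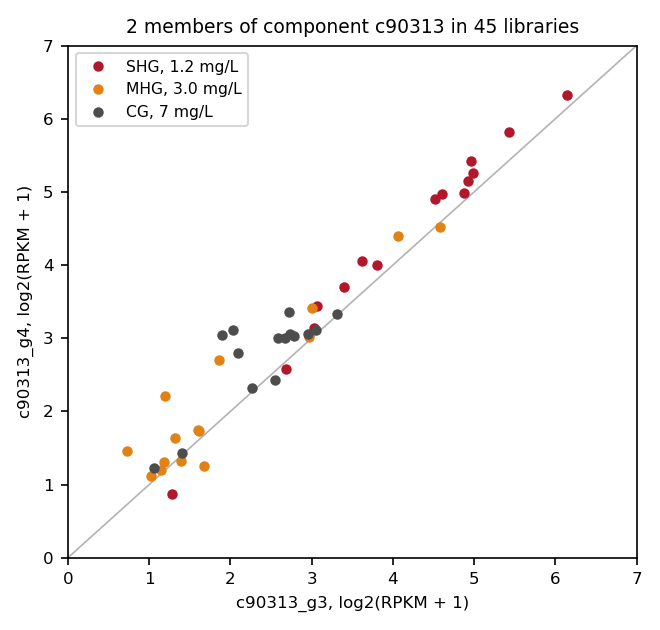
Level of log2(RPKM + 1) of c90313_g4 (y axis) against c90313_g3 (x axis) in the 45 libraries, with SHG in red, MHG in orange and CG in grey and a line of equal values. The points follow the line, most MHG points lie at the low end and most SHG points at the high end, with 1 SHG library at the lowest c90313_g4 level.

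The other component with more than 1 member was c87735. Its genes c87735_g1 and c87735_g7 deviated together far less, with a Pearson r of 0.13 over 45 libraries. At 0 h SHG minus CG was 1.68 in c87735_g1 and 0.24 in c87735_g7, while after 24 h it was 1.11 and 1.59. The 33 members came from 31 components, and 16 had at least 1 other listed gene in their component. Among these other genes, c86897_g5, from the component of member c86897_g4, was a comparison gene. Its moderate minus control difference after 24 h was 0.72, so the moderate limit split this component. Over all 528 pairs of members, r of the deviations had a median of 0.15 and ran from -0.44 to 0.95, and 29 pairs exceeded 0.5. Levels without removal of group means had a median r of 0.61, which the shared groups and libraries contribute to. The rule also built in part of it, since every member had to be high in the same SHG groups. No such figures are given for pairs of other genes, so neither median is read as a trait of members.

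Single libraries were high or low across members at each oxygen level. SHG 12 h replicate 1 was the highest of its group in 23 of 33 members, with a member mean of 4.95 against 4.14 and 4.15 in replicates 2 and 3. SHG 24 h replicate 2 was highest in 22 members, at 4.78, and SHG 24 h replicate 1 lowest in 21, at 3.90, with replicate 3 at 4.32. Over all genes tested these libraries differed little, with means of 2.91, 2.86 and 2.80 for SHG 12 h and 3.01, 2.98 and 2.84 for SHG 24 h, so the order of SHG 24 h libraries in members was not that of all genes. With all libraries, limma called 33 members in SHG against CG after 12 h (36.8% of all genes tested called higher) and 29 after 24 h (40.7%). The count was 27 after 12 h without SHG replicate 1 and 21 after 24 h without SHG replicate 2. Shares of all genes are not given for these refits. Nothing is read from these counts, since the same values chose the members. MHG 12 h replicate 1 was highest in 23 members, at 3.06 against 2.62 and 2.65, and MHG 4 h replicate 1 in 21, at 3.34 against 2.74 and 3.00. CG 24 h replicate 2 was highest in 23 members, and CG 24 h replicate 1 was the lowest of its group in 24 members, at 2.49 against 3.16 and 2.90, and was also low over all genes, at 2.52 against 2.83 and 2.85. What these libraries share was not tested.

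The spread between SHG libraries of 4 to 24 h had a median SD of 0.51 on the log2 scale over members, against 0.33 over all genes tested and 0.41 over comparison genes. In MHG libraries it was 0.39 over members, 0.37 over all genes and 0.51 over comparison genes. In CG libraries it was 0.41 over members, 0.39 over all genes and 0.48 over comparison genes. Members thus had the higher spread than comparison genes in SHG only. The SHG and CG libraries of these times, and MHG of 24 h, had helped to choose both lists. The member median was largest in SHG, and these differences were not tested.

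The 82 comparison genes, which met the severe condition but had a moderate minus control difference of 0.6 or more after 24 h, differed from members by rule in that value alone. Their MHG minus CG medians were 0.31 at 0 h, 0.21 after 4 h, 0.64 after 8 h, 0.50 after 12 h and 1.32 after 24 h, where members had 0.30, 0.28, 0.41, 0.18 and 0.21. Their SHG minus CG medians were 0.70 at 0 h, 1.39 after 4 h, 2.04 after 8 h, 2.23 after 12 h and 2.05 after 24 h, each above the member median at that time. From MHG 0 h to 12 h they had a median of -0.23, against -0.43 in members. The MHG medians of the lists were close at 0 and 4 h and further apart from 8 h on. These medians are descriptions of lists chosen on the data and no test of the difference between the lists was made.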

How the data were processed

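The authors deposited 1 table per library with a value for each assembled gene, read here as RPKM from the values, since the headers name no unit; per the labels' protocols, paired reads of 125 bp from total RNA went into a Trinity assembly. The aligner and counter: not given in the sources used here. Values were taken as log2(RPKM + 1). Members were found by the rule in Python 3.11.15 (pandas 2.3.3, numpy 2.4.6). The members and lists were chosen with earlier results of these data known. Comparisons used limma 3.58.1 in R 4.3.3, with 1 mean per group over all 45 libraries, an intensity trend and two-sided p-values adjusted over 2656 genes with at least 1 RPKM in 3 libraries. A fold change on log2(RPKM + 1) understates changes of low genes. The fit was tested on simulated data. Named genes were the 2 highest and 2 lowest members on each measure and the genes nearest the limits of the rule. Those most like the leading member were named too. Genes c107491_g1, c91458_g3, c87735_g7 and c86897_g5 were named after their values were seen. Other pseudocounts, quantile normalization, other filters, a fit of the compared groups alone, a block and each library left out were tried. No 2 libraries agreed within sampling noise (lowest chi-square per gene 27.9 over 990 pairs).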

Additional observations from a re-analysis of the deposited data

Results flagged for a closer look

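At 4 h, c90313_g3 and c90313_g4 lay on opposite sides of control under the 2 hypoxia levels. In c90313_g3, SHG minus CG was 1.94 and MHG minus CG was -1.27 on the log2(RPKM + 1) scale. In c90313_g4, SHG minus CG was 1.89 and MHG minus CG was -1.23. Every SHG library lay above every CG library and every MHG library below, and both differences subtract the same 3 CG libraries. SHG minus MHG, in which these cancel, was 3.21 in c90313_g3 and 3.11 in c90313_g4. No p-value of this difference is given, because the SHG libraries of 4 h were used to choose the members and the 2 genes were picked for this split. Both genes are among the 9 members counted as called for SHG against MHG after 4 h, a count from which nothing is read. MHG against CG alone did not pass (limma adjusted p = 0.735 and 0.777). Nor did SHG against CG, although the rule used it (limma adjusted p = 0.125 and 0.170). The CG libraries of 4 h entered the rule, so nothing is read from these p-values. The 2 genes belong to 1 Trinity component and count as 1 observation.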

How the results depend on the processing

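The rule found 33 members as written, 40 with a pseudocount of 0.1 (29 shared with the 33), 35 with 0.5 (31 shared), 22 after quantile normalization (20 shared), 23 with a moderate limit of 0.4, 18 with a severe limit of 1, and 29 to 42 with 1 library left out, where 10 members were kept each time. MHG against CG at 8 h had 1 called member, in place of 0, with a pseudocount of 0.1 or 0.5, after quantile normalization and without the variance trend, and 0 to 1 with a library left out, as at 4 h. MHG at 12 h against 0 h had 0, in place of 1, with a pseudocount of 0.1 or the compared groups alone, and 0 to 2 with a library left out. With the compared groups alone SHG against CG at 4 h had 1, in place of 17 (7 to 13 with a library left out), and SHG against MHG had 0 at 4 h, in place of 9 (3 to 11), 8 at 8 h, in place of 16 (9 to 15), and 18 at 12 h, in place of 29. In each case the cause was not tested, and shares of all genes called under these settings are not given. Fits with the replicate block (17 members for SHG against CG at 4 h) left the other counts within 1.5 times. Same-numbered libraries were not treated as pairs. The 54 correlations between them ran from -0.50 to 0.25, which cannot exclude a shared tank. Among named members, the 0 h or 24 h difference of c87376_g2, the shortest, moved with the pseudocount and with the library left out. Others moved with a library left out. SHG minus CG at 0 h went from 0.39 to 1.28 in c82266_g1 without CG 0 h replicate 3. In c83120_g1 it went from 0.03 to -0.56 without CG 0 h replicate 1. MHG minus CG after 24 h went from 0.52 to 0.16 in c90998_g3 without CG 24 h replicate 1. In c87735_g1 it went from 0.21 to 0.94 without CG 24 h replicate 2.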
